A study of Rattus norvegicus with 19 samples.

Results

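miR-382, miR-134, miR-668 and miR-485 lie next to each other in the imprinted Dlk1-Dio3 region on rat chromosome 6, and 7 of the 748 mature miRNAs counted in the plasma libraries come from them. The 7 were taken by name and place, as every arm of the 4 hairpins with a row in the UMI count table. The rule uses no measured value, but the set was proposed with earlier results of these data known, so the shares of members called are descriptions. Plasma from the lateral tail vein of adult Sprague-Dawley rats, male per the study's methods, was sequenced as small RNA at 2 days, with 1 library per rat and 19 libraries in all. The 4 naive rats were anesthetized with isoflurane and had no surgery. The 5 sham-operated controls had anesthesia and a craniectomy without an impact, and 5 rats with mild TBI (mTBI) and 5 with severe TBI (sTBI) had the same surgery followed by lateral fluid-percussion injury of the left cortex. Blood from all 4 groups was drawn into EDTA under isoflurane. Per the study's methods, operated rats were given subcutaneous lidocaine at the scalp before incision, subcutaneous saline after righting, and buprenorphine. The rats with TBI had further saline injections on the next day, and those with sTBI were also fed soft food. Surgery, injury and this care cannot be told apart in comparisons between groups that differ in them. sTBI plasma comes from rats that survived the injury to the time of sampling, and for sequencing several aliquots of plasma of a rat were pooled.

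The imprinted region carries one of the largest clusters of miRNAs in mammalian genomes, transcribed from the maternal chromosome as long RNAs that are cut into hairpins and then into mature arms. A mature miRNA pairs through its seed, bases 2 to 8, with sites in messenger RNAs and lowers their translation or stability. Many miRNAs of the cluster are abundant in neurons, where neuronal activity raises its transcription through Mef2, as shown in rat neurons. miR-134 is found in dendrites of rat hippocampal neurons and limits the size of dendritic spines by holding back translation of Limk1, a kinase that acts on actin. miR-485 acts at synapses of rat hippocampal neurons, where its 5p arm represses the synaptic vesicle protein SV2A.

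The sequences of the 7 mature miRNAs are given because each is counted by its own sequence, and because arms of 1 hairpin can be set side by side. They are RefSeq sequences with positions on chromosome 6 of the GRCr8 build, plus strand, whereas the authors aligned reads with Rnor_6.0. Capitals mark the seed.
rno-miR-382-5p: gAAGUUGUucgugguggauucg
rno-miR-382-3p: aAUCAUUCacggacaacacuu
rno-miR-134-5p: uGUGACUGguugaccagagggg
rno-miR-134-3p: cUGUGGGCcaccuagucaccaa
rno-miR-668: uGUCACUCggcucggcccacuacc
rno-miR-485-5p: aGAGGCUGgccgugaugaauuc
rno-miR-485-3p: cAUACACGgcucuccucucuuc

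All 7 matched the RefSeq table by name, and the 7 seeds differ from each other. None of the 7 seeds is carried by another of the 693 mature rat miRNA names in that table. The closest sequence to any of them is miR-758-5p, which differs from miR-134-5p by 2 mismatches over an overlap of 16 bases. Per the study's methods, perfect matches were assigned first, and up to 2 mismatches were accepted only in a last mapping. Only reads left for that last mapping could be shared between these 2 rows. Every other member differs from its closest relative by 4 or more bases. From the first base of miR-382-5p to the last base of miR-485-3p the cluster spans 1181 bases, and RefSeq orders the genes as Mir382, Mir134, Mir668 and Mir485, with Mir544 and Mir3592 before them and Mir154 and Mir496 after them. The hairpins of miR-382 and miR-134 are shown to set their 2 arms side by side. No hairpin sequence of miR-485 was found in the reference. Capitals mark the mature arms, the 5p arm first.
Mir382, chr6:134569944-134570023: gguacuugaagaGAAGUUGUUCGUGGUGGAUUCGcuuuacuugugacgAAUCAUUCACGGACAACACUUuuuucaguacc
Mir134, chr6:134570313-134570385: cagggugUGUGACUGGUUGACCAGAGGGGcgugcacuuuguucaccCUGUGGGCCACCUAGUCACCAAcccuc

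Levels are given as CPM, the UMI count relative to all miRNA UMIs of the library after TMM scaling, which sets libraries to a common scale. Values with ± are the mean and SD over n rats. A UMI is a random tag on each cDNA molecule, so that PCR copies are counted once. The libraries held 2409545 to 5866757 miRNA UMIs from 16241433 to 21517763 sequenced reads, and 1.19 to 2.24 reads per UMI. In 7 of the 19 libraries every miRNA was at 0 or at 10 and above, so a listed 0 there does not have the same meaning as in the other 12. A set of 4 libraries (naive 1 and 3, mTBI 2 and 5) stood apart, with 12.6 to 16.8 miRNA UMIs per spike-in UMI against 5.53 to 9.37 in the other 15, and results are given with and without them where they matter. The rats are separate animals with 1 library each. Summed levels of marker lists are CPM before TMM scaling. Erythrocyte miRNAs (5 rows, none at 0 in any library) summed to 28709 to 132255 CPM, with group medians from 62790 (naive) to 99046 (sTBI). In each of the 6 comparisons 0 of 5 were called. It was also 0 of 6 for leukocyte, 0 of 2 for hepatocyte and 0 of 2 for platelet and endothelial miRNAs. Of all miRNAs 0.140% to 4.35% were called higher, so 0 calls in lists this short do not show unchanged levels. The hepatocyte median log2 fold change ran from -1.23 (sTBI against naive) to 0.34 (mTBI against sham). The platelet and endothelial median ran from -0.59 (sTBI against mTBI) to 0.61 (mTBI against sham). For the erythrocyte and leukocyte lists it stayed between -0.12 and 0.20. The summed level of striated muscle miRNAs was 354 to 1366 CPM in naive rats, 2349 to 10066 in sham-operated controls, 2631 to 6333 after mTBI and 1807 to 2346 after sTBI, with every operated rat above every naive rat. Of the 6 tested, 3 were called higher in sham-operated controls against naive rats (2.10% of all miRNAs), 4 after mTBI (2.38%) and 1 after sTBI (4.35%). Of the 7 muscle rows, miR-206-5p was at 0 in 18 libraries and miR-133b-5p in 1. Brain-enriched miRNAs (17 rows, none at 0) summed to 3104 to 7547 CPM in naive rats, 4058 to 5662 in sham-operated controls, 3342 to 6678 after mTBI and 7206 to 9420 after sTBI. Against naive rats, 0 of 17 were called higher in sham-operated controls (2.10% of all miRNAs), 3 after mTBI (2.38%) and 5 after sTBI (4.35%). Against sham-operated controls it was 1 of 17 after mTBI (0.140%) and 4 after sTBI (1.82%). In sTBI against mTBI it was 5 of 17 (2.95%), and 0 were lower in any comparison.

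The 7 members were low to middling in plasma. miR-134-5p and miR-382-5p ranked 231 and 232 of 713 tested miRNAs by mean CPM, miR-668 ranked 283, miR-134-3p 361 and miR-485-3p 475, with miR-485-5p next and miR-382-3p last of the 7 at 587. Together the 7 gave 11620 UMIs over the 19 libraries and, before TMM scaling, 59.7 to 307 CPM per library. All 7 passed the filter on low counts. Of all values of the members, 1 was 0 and 1 was from 1 to 9.

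**Figure D1:**
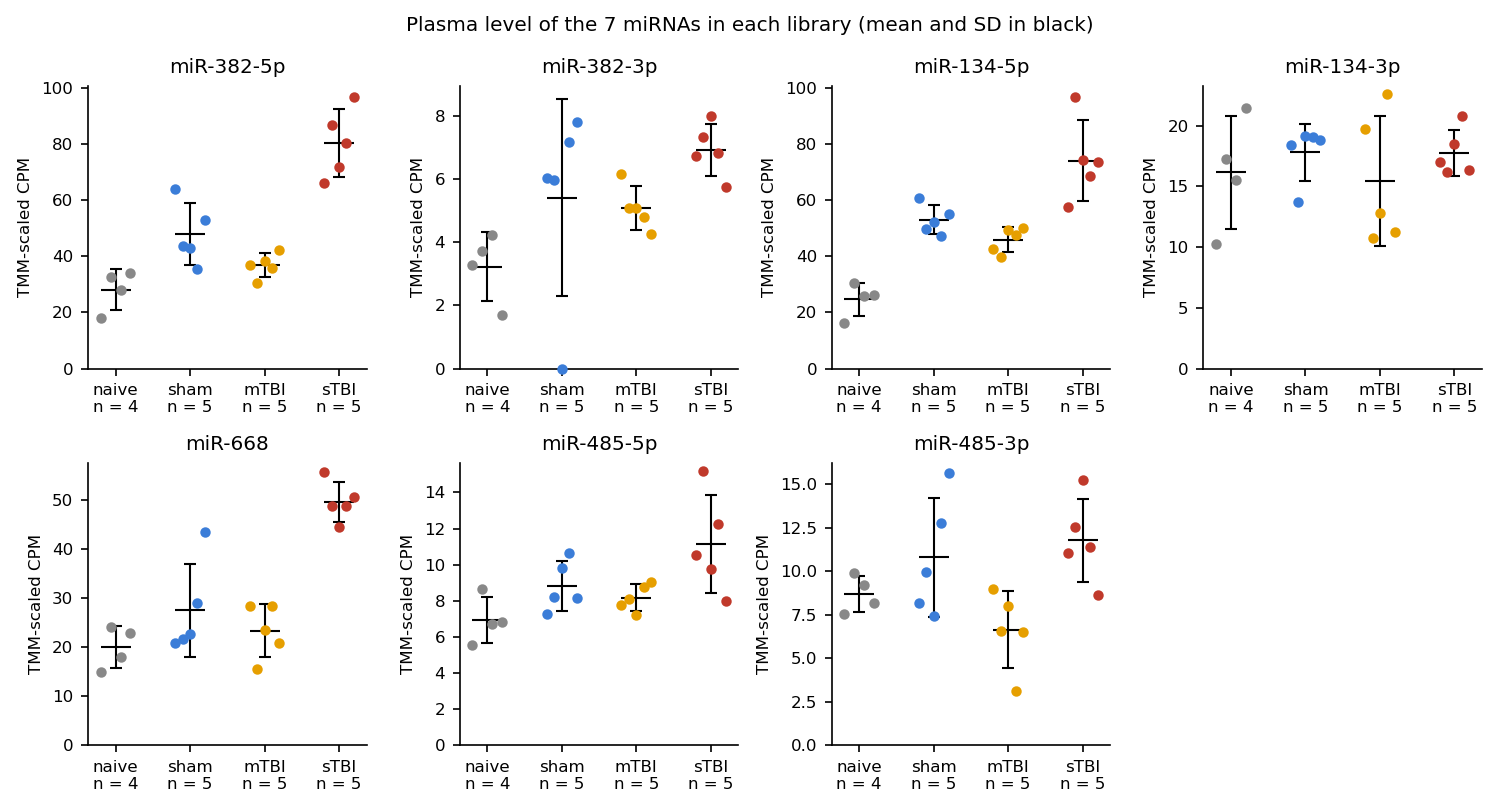
Level of each of the 7 miRNAs in every library (TMM-scaled CPM, linear axis from 0), with naive, sham, mTBI and sTBI rats in separate columns, points for libraries, and the mean and SD in black. On this scale all 5 sTBI libraries lie above all other libraries for miR-382-5p (66.1 CPM or more against at most 64.0) and for miR-668 (44.4 or more against at most 43.4). The 4 groups overlap for miR-134-3p.

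rno-miR-382-5p, the 5p arm of the first hairpin, was highest after sTBI and lowest in naive rats. It was counted in naive rats at 17.8, 32.4, 27.9 and 34.1 CPM (71, 105, 79 and 100 UMIs). In the 5 sham-operated controls it was at 64.0, 43.5, 42.8, 35.6 and 53.0 CPM. After mTBI it was at 36.8, 30.5, 38.2, 36.0 and 42.3 CPM. All sham-operated controls lay above all naive rats, whereas mTBI overlapped with both groups. After sTBI it reached 66.1, 86.6, 71.7, 80.4 and 96.7 CPM (245, 331, 287, 282 and 302 UMIs), above every other library. Mean levels were 28.1 ± 7.31 for naive (n = 4), 47.8 ± 11.0 for sham (n = 5), 36.8 ± 4.27 for mTBI (n = 5) and 80.3 ± 12.1 for sTBI (n = 5). The order of the levels was thus sTBI, sham, mTBI and naive. Of the neighbouring groups in that order, sTBI and sham passed the edgeR test described further on, and sham and mTBI, and mTBI and naive, did not.

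rno-miR-382-3p, the other arm of that hairpin, was the scarcest of the 7. It had 13, 12, 12 and 5 UMIs in naive rats and 31, 17, 19, 17 and 17 UMIs after mTBI. After sTBI it had 25, 28, 32, 24 and 18 UMIs. Sham-operated controls had 20, 24, 0, 23 and 22 UMIs, and the 0 in sham 3 stands apart from the other 4. Sham 3 is a library whose lowest count above 0 was 10. Over its 3625424 UMIs, a count of 0 allows a level of up to 0.827 CPM before TMM scaling (3 counts, counting error only), or of 9 UMIs if smaller counts were not kept. Mean levels were 3.23 ± 1.09 CPM for naive (n = 4), 5.4 ± 3.12 for sham (n = 5), 5.08 ± 0.696 for mTBI (n = 5) and 6.93 ± 0.820 for sTBI (n = 5). The wide SD of the sham-operated controls comes from that library, as the other 4 had 20 to 24 UMIs.

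rno-miR-134-5p, the arm that acts on Limk1 in rat neurons, was lowest in naive rats, at 16.3, 30.3, 25.8 and 26.2 CPM (65, 98, 73 and 77 UMIs). Sham-operated controls had 60.7, 49.7, 52.0, 47.2 and 55.1 CPM. Rats with mTBI had 42.4, 39.8, 49.4, 47.6 and 49.9 CPM. Every operated rat was above every naive rat, and sham and mTBI overlapped. Before TMM scaling, mTBI 2 (31.5 CPM) lay below naive 2 (33.7). After sTBI the level was 57.5, 96.6, 74.2, 68.4 and 73.6 CPM, above all mTBI libraries, with sTBI 1 below the highest sham library. Mean levels were 24.7 ± 5.91 for naive (n = 4), 53.0 ± 5.23 for sham (n = 5), 45.8 ± 4.48 for mTBI (n = 5) and 74.0 ± 14.3 for sTBI (n = 5). Between neighbours in the order sTBI, sham, mTBI and naive, mTBI and naive passed the edgeR test, and sTBI and sham, and sham and mTBI, did not.

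rno-miR-134-3p, the opposite arm, overlapped between all 4 groups. Naive rats had 10.3, 17.3, 15.6 and 21.5 CPM and sham-operated controls 18.4, 13.7, 19.1, 19.1 and 18.8. After mTBI the level was 19.7, 10.8, 12.8, 22.6 and 11.3 CPM, and after sTBI it was 17.0, 16.2, 18.5, 20.8 and 16.3. Group means lay between 15.4 ± 5.39 (SD, n = 5, mTBI) and 17.8 ± 2.33 (SD, n = 5, sham), with 16.2 ± 4.63 for naive (n = 4) and 17.8 ± 1.92 for sTBI (n = 5). No neighbouring pair in order of level passed the edgeR test. The lowest 3 libraries were naive 1, mTBI 2 and mTBI 5, all of the set of 4 that stood apart.

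rno-miR-668, of the third hairpin, for which the table names no arm, stood apart in the sTBI libraries. Naive rats had 14.8, 24.1, 18.0 and 22.8 CPM (59, 78, 51 and 67 UMIs). Sham-operated controls had 20.8, 21.6, 22.6, 29.1 and 43.4 CPM, and rats with mTBI had 28.3, 15.6, 23.5, 28.3 and 20.8. These 3 groups overlapped, and sham 5 was the highest library among them. After sTBI the level was 55.6, 48.7, 44.4, 48.7 and 50.6 CPM, in each case above every library of the other groups. Before TMM scaling, sham 5 (50.6 CPM) lay above sTBI 3 (49.7) and sTBI 5 (48.9). Mean levels were 19.9 ± 4.30 for naive (n = 4), 27.5 ± 9.45 for sham (n = 5), 23.3 ± 5.39 for mTBI (n = 5) and 49.6 ± 4.03 for sTBI (n = 5). Among neighbours in this order, sTBI and sham passed the edgeR test and the other pairs did not.

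rno-miR-485-5p, which represses SV2A in rat neurons, and rno-miR-485-3p were counted at 11 to 61 UMIs per library. For miR-485-5p the means were 6.93 ± 1.29 CPM for naive (n = 4), 8.82 ± 1.37 for sham (n = 5), 8.17 ± 0.739 for mTBI (n = 5) and 11.1 ± 2.73 for sTBI (n = 5). Naive rats had 22, 28, 19 and 20 UMIs and rats with sTBI 39, 58, 39, 43 and 25, and on the CPM scale the groups overlapped, from 5.52 to 8.65 and from 8.00 to 15.2. For miR-485-3p the means were 8.70 ± 1.05 (SD, n = 4), 10.8 ± 3.41 (SD, n = 5), 6.64 ± 2.22 (SD, n = 5) and 11.8 ± 2.40 (SD, n = 5) in the same order of groups. The lowest count of miR-485-3p was 11 UMIs, in mTBI 4. For neither arm did neighbouring groups pass the edgeR test.

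The comparisons were tested with edgeR's quasi-likelihood test, adjusted by the Benjamini-Hochberg method over all 713 miRNAs, with a call at an adjusted p under 0.05. The purpose of the study was to find plasma miRNAs that mark TBI. The comparisons share groups and are given side by side. A higher level in plasma cannot tell more cells releasing a miRNA from more RNA released per cell.

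**Figure D2:**
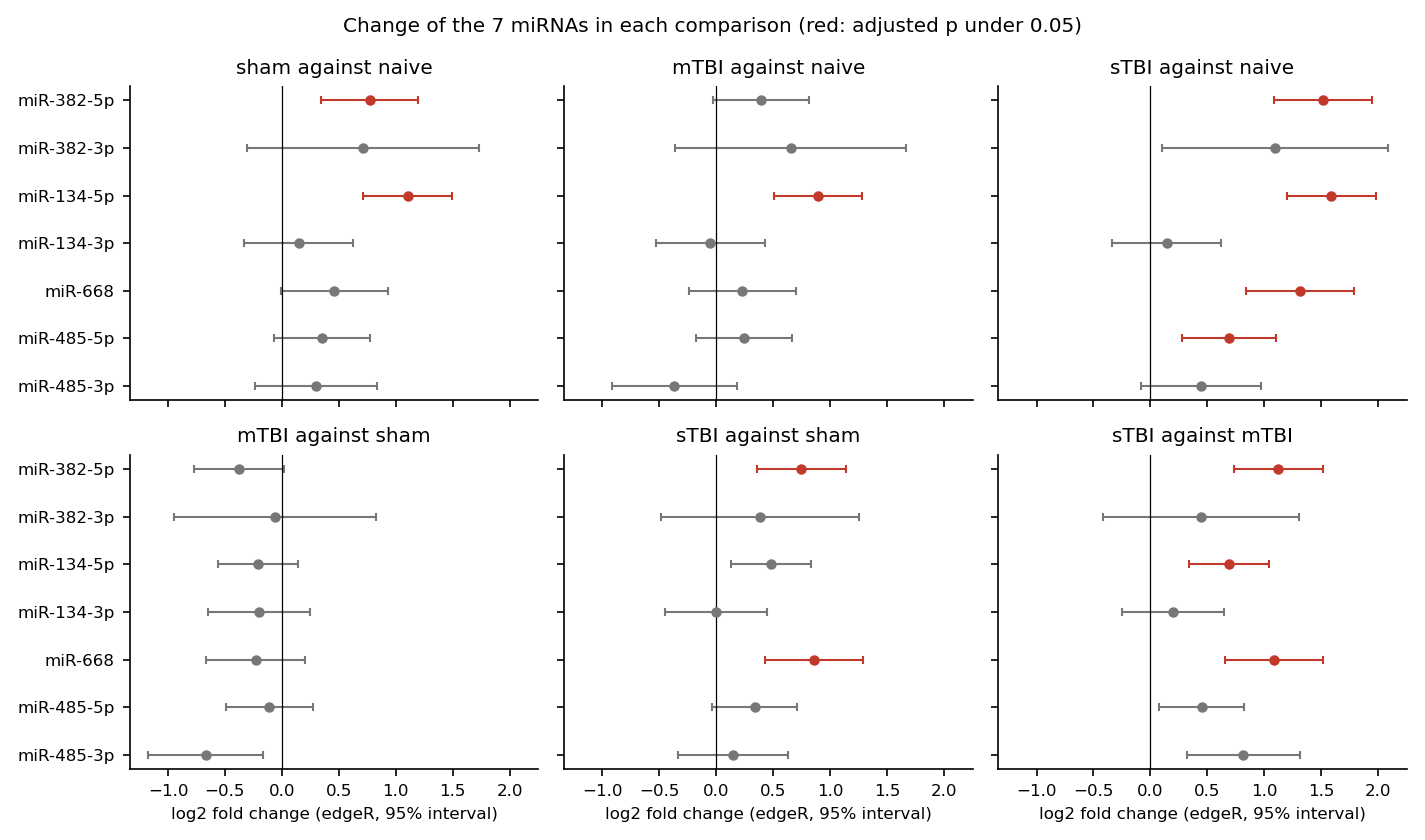
Log2 fold change of each of the 7 miRNAs in the 6 comparisons from edgeR, with its 95% interval, and red for an adjusted p under 0.05. miR-134-5p is red in 4 panels, miR-382-5p in 4, miR-668 in 3 and miR-485-5p in 1, and no interval in red lies below 0.

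Sham-operated controls were compared with naive rats, which asks what surgery without an impact does. miR-134-5p and miR-382-5p were higher, 2 of 7, where 2.10% of all miRNAs were called higher. miR-134-5p rose by a log2 fold change of 1.10 (SE 0.19, edgeR adjusted p = 0.00156), and all 5 sham-operated controls were above all 4 naive rats. miR-382-5p rose by 0.77 on the log2 scale (SE 0.20, edgeR adjusted p = 0.0466), again with all libraries above. Groups that did not overlap, sham above, were seen for these 2 of 7, against 4.91% of all miRNAs. The other 5 members were at 0.15 to 0.71, and the median over all miRNAs was 0.04. Without the 4 libraries set apart, neither call was kept (miR-134-5p 0.86, edgeR adjusted p = 0.0893, miR-382-5p 0.48, adjusted p = 0.767), with 2 naive rats left. The call of miR-382-5p was kept without naive 2, naive 4, sham 4 or mTBI 5, and was lost when any of the other 15 libraries was left out (adjusted p up to 0.240). It was also lost on read counts (edgeR adjusted p = 0.107), RLE factors (0.0668), spike-in totals (0.102), with the hemolysis covariate (0.0569) and in a fit of the 2 groups (0.228). Without sham 3, in which it was at 0, miR-382-3p was called (1.05, edgeR adjusted p = 0.0498).

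Rats with mTBI were compared with naive rats. miR-134-5p alone was higher, 1 of 7, where 2.38% of all miRNAs were called higher. It rose by 0.90 on the log2 scale (SE 0.19, edgeR adjusted p = 0.00619), with all 5 mTBI libraries above all 4 naive ones on TMM-scaled CPM. miR-382-5p was at 0.39 (SE 0.20, edgeR adjusted p = 0.738) and the ranges overlapped. Groups that did not overlap on TMM-scaled CPM, with mTBI above, were found for miR-134-5p and for miR-382-3p, 2 of 7 against 4.35% of all miRNAs. For miR-382-3p the margin was 4.26 CPM in mTBI 5 against 4.24 in naive 3. Before TMM scaling both overlapped. miR-134-5p was then at 31.5 CPM in mTBI 2 and 33.7 in naive 2, and miR-382-3p at 2.90 in mTBI 5 and 4.13 in naive 2. Without the 4 libraries set apart the call of miR-134-5p was lost (0.70, edgeR adjusted p = 0.260, 2 naive rats and 3 with mTBI), as it was on total miRNA counts (0.91, edgeR adjusted p = 0.0669). The summed muscle miRNAs given above were also higher in each operated rat than in any naive rat, with 3 of 6 (sham) and 4 of 6 (mTBI) called, and their part in these differences was not tested.

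Rats with sTBI differed most from naive rats. miR-134-5p, miR-382-5p, miR-668 and miR-485-5p were higher, 4 of 7, where 4.35% of all miRNAs were called higher. miR-134-5p rose by 1.59 on the log2 scale (SE 0.19, edgeR adjusted p = 3.1e-06), which is 3.01-fold. miR-382-5p rose by 1.52 (SE 0.21, edgeR adjusted p = 2.6e-05), or 2.86-fold, and miR-668 by 1.32 (SE 0.23, edgeR adjusted p = 0.000564), or 2.49-fold. These 3 and miR-382-3p had all 5 sTBI libraries above all 4 naive ones, 4 of 7 against 7.85% of all miRNAs. miR-485-5p rose by 0.69 (SE 0.20, edgeR adjusted p = 0.0464) with overlapping ranges. miR-382-3p was at 1.10 (SE 0.48, edgeR adjusted p = 0.172), miR-485-3p at 0.45 (SE 0.25, adjusted p = 0.283) and miR-134-3p at 0.15 (SE 0.23, adjusted p = 0.754). Without sham 3, the library in which it was at 0, the adjusted p of miR-382-3p was 0.0133. The 95% interval of miR-134-3p, from -0.33 to 0.62, does not reach the change of its 5p arm, from 1.20 to 1.98.

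Without the 4 libraries set apart, miR-134-5p (1.34, edgeR adjusted p = 0.000412), miR-382-5p (1.22, adjusted p = 0.00511) and miR-668 (1.04, adjusted p = 0.0428) were still called against naive rats, and miR-485-5p was not (0.48, adjusted p = 0.656). The call of miR-485-5p was kept only without naive 2, sham 5, sTBI 3 or sTBI 5, and was lost without any of the other 15 libraries (adjusted p up to 0.214). It was also lost on read counts (edgeR adjusted p = 0.0573), RLE factors (0.0533), spike-in totals (0.179), with the hemolysis covariate (0.0729), with counts under 10 set to 0 (0.0502) and in a fit of the 2 groups (0.118).

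mTBI and sham-operated controls had the same surgery and differ by the mild impact and the later saline. 0 of 7 members were called, where 0.140% of all miRNAs were called higher, with edgeR, and DESeq2 also called 0 of 7. At an unadjusted p under 0.05 there was 1 of 7, miR-485-3p (-0.67, SE 0.24, edgeR adjusted p = 0.366), against 81 of 713 miRNAs. All 7 log2 fold changes were below 0, from -0.67 to -0.06, with miR-382-3p (0.11) and miR-485-5p (0.05) above 0 on spike-in scaling. The 95% interval for miR-382-5p was -0.77 to 0.02, that for miR-134-5p -0.56 to 0.14 and that for miR-668 -0.66 to 0.20, and each of the 3 includes 0.

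sTBI and sham-operated controls differ by a severe impact and by the saline and soft food that followed it. miR-668 and miR-382-5p were higher, 2 of 7, where 1.82% of all miRNAs were called higher. miR-668 rose by 0.86 on the log2 scale (SE 0.21, edgeR adjusted p = 0.0293) and miR-382-5p by 0.75 (SE 0.19, edgeR adjusted p = 0.0352). On TMM-scaled CPM both had every sTBI library above every sham library, by a small margin in each case, 2 of 7 against 2.66% of all miRNAs. Before TMM scaling miR-668 overlapped, as given above. miR-134-5p was at 0.48 (SE 0.17, edgeR adjusted p = 0.234) and overlapped by 1 library on each side. Without the 4 libraries set apart, miR-668 (0.87, edgeR adjusted p = 0.0107) and miR-382-5p (0.75, adjusted p = 0.0153) were still called.

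Both calls against sham-operated controls depended on which libraries were included. miR-382-5p was lost when naive 3, sham 2, sham 3, sham 4, mTBI 1, sTBI 2, sTBI 4 or sTBI 5 was left out (edgeR adjusted p up to 0.166). miR-668 was lost without sham 1, sham 2, sham 3, sTBI 1, sTBI 4 or sTBI 5 (adjusted p up to 0.130). On total miRNA counts both were lost (miR-382-5p 0.81, edgeR adjusted p = 0.125, miR-668 0.91, adjusted p = 0.249). On spike-in totals miR-382-5p was lost (0.58, edgeR adjusted p = 0.210), and on read counts miR-668 was lost (0.80, adjusted p = 0.0664).

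sTBI was compared with mTBI, which asks about severity, with soft food given after sTBI. miR-382-5p, miR-668 and miR-134-5p were higher, 3 of 7, where 2.95% of all miRNAs were called higher. miR-382-5p rose by 1.12 on the log2 scale (SE 0.19, edgeR adjusted p = 0.000536), or 2.18-fold, and miR-668 by 1.09 (SE 0.21, edgeR adjusted p = 0.00254), or 2.12-fold. miR-134-5p rose by 0.69 (SE 0.17, edgeR adjusted p = 0.0225), or 1.62-fold. All 3 had no overlap between the groups, 3 of 7 against 5.05% of all miRNAs. miR-485-3p was at 0.81 (SE 0.24, edgeR adjusted p = 0.0693) and miR-485-5p at 0.45 (SE 0.18, adjusted p = 0.249). With DESeq2 miR-485-3p was called (0.78, DESeq2 adjusted p = 0.0296). It was also called without sham 5, mTBI 1 or sTBI 5 (edgeR adjusted p down to 0.0281). The call of miR-134-5p was lost without mTBI 1, mTBI 2 or sTBI 2 (edgeR adjusted p up to 0.0743), on spike-in totals (0.37, adjusted p = 0.216) and without the 4 libraries set apart (0.64, adjusted p = 0.0752). miR-382-5p (1.09, adjusted p = 0.00302) and miR-668 (0.87, adjusted p = 0.0467) were still called without those 4.

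Ratios of members within a library do not depend on how the library is scaled. Over the 4 groups, 21 log2 ratios of UMI counts (0.5 added to each count) were tested by permuting the libraries 100000 times and comparing the Kruskal-Wallis statistic, and 11 of 21 passed after Benjamini-Hochberg adjustment. The ratios share members and are not independent. Ratios of other miRNAs and of the arms of other hairpins were not tested, so no share over all miRNAs stands beside these results. Of the 3 pairs of arms of 1 hairpin, that of miR-134 passed. Its log2 ratio of 5p to 3p was 0.66, 0.80, 0.72 and 0.29 in naive rats. In sham-operated controls it was 1.71, 1.85, 1.44, 1.30 and 1.54, and after sTBI it was 1.75, 2.56, 2.00, 1.71 and 2.16. After mTBI it was 1.10, 1.87, 1.94, 1.07 and 2.13. Every operated rat thus carried more of the 5p arm for each 3p arm than any naive rat. Mean log2 ratios were 0.62 ± 0.23 for naive (n = 4), 1.57 ± 0.22 for sham (n = 5), 1.62 ± 0.50 for mTBI (n = 5) and 2.04 ± 0.35 for sTBI (n = 5) (permutation p = 0.00228, adjusted p = 0.00958). On read counts the adjusted permutation p was 0.00847, and without the 4 libraries set apart it was 0.0509.

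**Figure D3:**
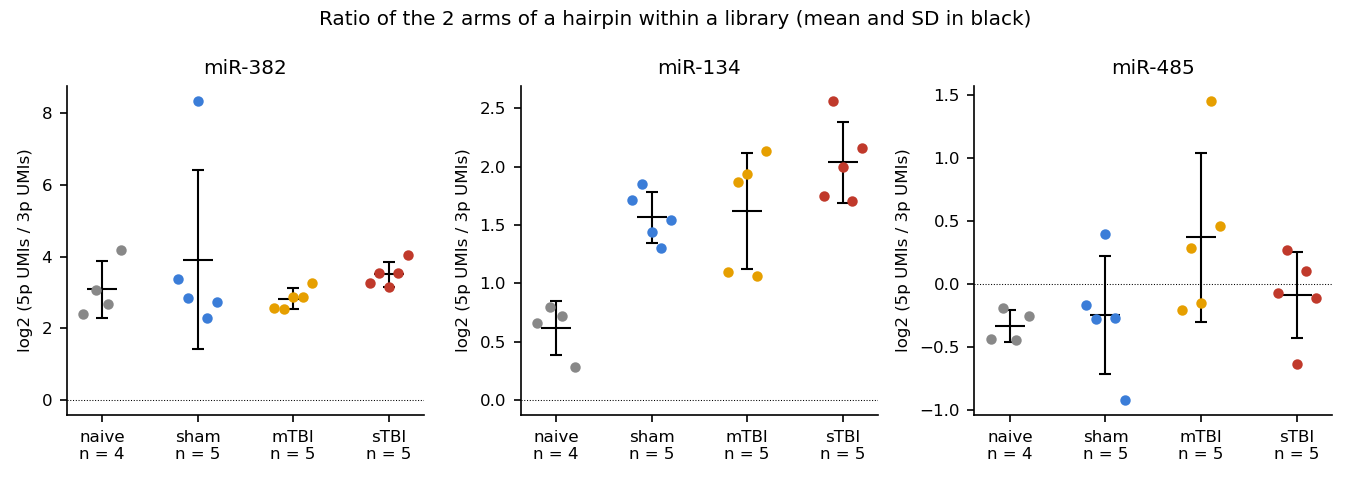
Log2 ratio of 5p to 3p UMI counts (0.5 added to each) for the hairpins of miR-382, miR-134 and miR-485 in each library, by group, with the mean and SD in black. For miR-134 the naive rats lie between 0.29 and 0.80 and all operated rats at 1.07 or more, while the miR-485 groups overlap, and the miR-382 ratio of 8.34 belongs to sham 3, where the 3p arm was at 0.

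The arms of miR-382 (adjusted permutation p = 0.341) and of miR-485 (adjusted permutation p = 0.144) did not pass. For miR-382 the mean log2 ratio was 3.09 ± 0.79 for naive (n = 4), 2.83 ± 0.30 for mTBI (n = 5) and 3.50 ± 0.34 for sTBI (n = 5), and 3.91 ± 2.50 for sham (n = 5), where sham 3 alone was at 8.34. For miR-485 the means ran from -0.33 ± 0.13 (SD, n = 4, naive) to 0.37 ± 0.67 (SD, n = 5, mTBI).

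Across hairpins, 2 of the 5 ratios of miR-134-3p to another hairpin's arm passed, and those with miR-382-3p, miR-485-5p and miR-485-3p did not (adjusted permutation p = 0.202, 0.387 and 0.611). miR-382-5p to miR-134-3p had a mean log2 ratio of 0.80 ± 0.10 for naive (n = 4) and 2.16 ± 0.30 for sTBI (n = 5) (adjusted permutation p = 0.00651). miR-134-3p to miR-668 went from -0.32 ± 0.21 (SD, n = 4) to -1.48 ± 0.22 (SD, n = 5) (adjusted permutation p = 0.00651). These 2 ratios also passed on read counts (adjusted permutation p = 0.00693 and 0.00357), without the 4 libraries set apart (0.0277 for each) and with each library left out. The ratio of the 2 leading 5p arms, miR-382-5p to miR-134-5p, had means of 0.18 ± 0.13 for naive (n = 4), -0.17 ± 0.19 for sham (n = 5), -0.32 ± 0.09 for mTBI (n = 5) and 0.12 ± 0.22 for sTBI (n = 5) (adjusted permutation p = 0.00651), and did not pass on read counts (adjusted permutation p = 0.0768). miR-382-5p to miR-668 did not pass (adjusted permutation p = 0.611), and its group means lay between 0.47 and 0.82. Of the 21 ratios, 3 passed on read counts, 4 without the 4 libraries set apart and 6 without naive 1.

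The members' patterns over the 19 libraries were compared with those of the other 712 miRNAs by Spearman's rho on TMM-scaled log2 CPM, as a description. The libraries share their groups and their scaling, so rho within groups, on deviations from the group means, is given as well. miR-382-5p and miR-134-5p were each other's most alike miRNA of the 712 (rho = 0.97, Pearson's r = 0.91, 0.82 on deviations, and 0.97 for miR-382-5p without the 2 libraries farthest from its median). Next for both came miR-3543 (rho = 0.88 and 0.91, 0.32 and 0.54 on deviations) and miR-434-3p (rho = 0.86 and 0.91, 0.72 and 0.85 on deviations), of the same imprinted region. miR-134-5p and its own 3p arm had a rho of 0.14 (0.14 on deviations), place 284 of 712.

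**Figure D4:**
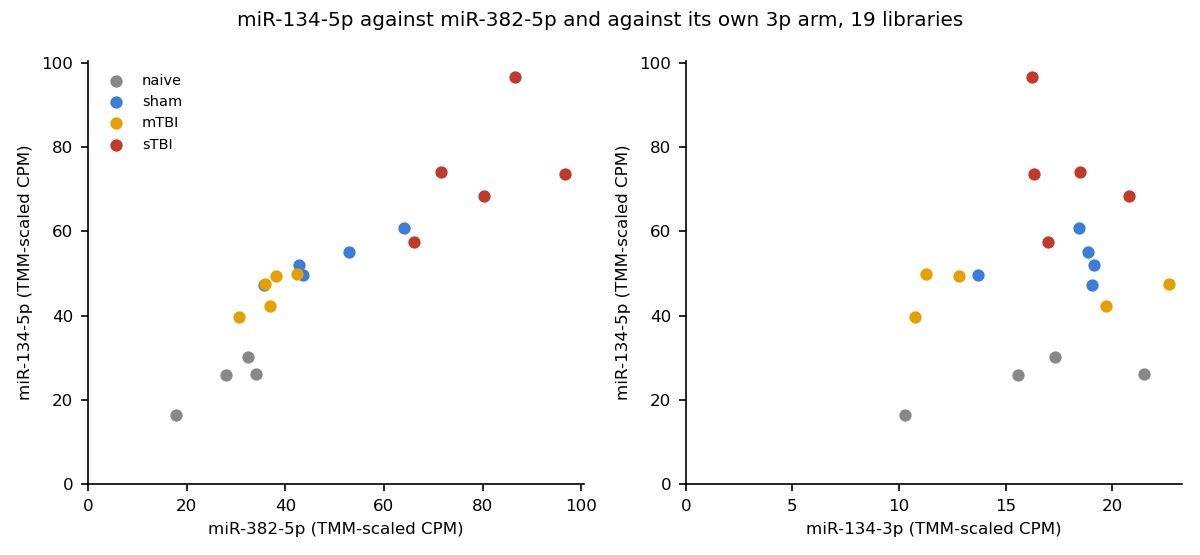
TMM-scaled CPM of miR-134-5p in each library against miR-382-5p (left) and against its own opposite arm, miR-134-3p (right), in 19 libraries coloured by group. With miR-382-5p the libraries run along a line (rho = 0.97), whereas against miR-134-3p the groups are stacked with no common line (rho = 0.14).

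miR-668 was most like miR-667-3p (rho = 0.88, 0.77 on deviations) and miR-341 (rho = 0.88, 0.69 on deviations), both of the region, and miR-138-2-3p (rho = 0.87, 0.61 on deviations), a miRNA of the brain list. miR-485-5p was also most like miR-138-2-3p (rho = 0.75, 0.40 on deviations), then miR-935 (0.72, 0.56 on deviations) and miR-137-3p (0.72, 0.58 on deviations). miR-485-3p was nearest to miR-207 (rho = 0.82, 0.81 on deviations), then miR-3541 (0.76, 0.46 on deviations) and miR-382-3p (0.75, 0.59 on deviations). For miR-382-3p the nearest were miR-487b-3p (rho = 0.79, 0.22 on deviations), miR-3578 (0.79, -0.08 on deviations) and miR-341 (0.77, 0.08 on deviations). miR-134-3p was nearest to miR-702-5p (rho = 0.78, 0.78 on deviations), miR-216b-5p (0.73, 0.67 on deviations) and miR-487b-5p (0.73, 0.72 on deviations). By nearest miRNA, the 2 leading 5p arms stood together and no member had miR-134-3p among its nearest 3.

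The genes flanking the 4 hairpins were taken as all 12 rows of miR-487b, miR-539, miR-544, miR-154, miR-496 and miR-377, of which 9 were tested. Mir3592, directly before Mir382, and Mir6331 and Mir3576, which lie between the genes named, were not in this set. In sTBI against naive rats 2 of 9 were higher, where 4.35% of all miRNAs were called higher. These were miR-154-5p (0.89, SE 0.20, edgeR adjusted p = 0.0109) and miR-487b-3p (1.69, SE 0.48, edgeR adjusted p = 0.0464). In sTBI against mTBI 1 of 9 was higher, against 2.95% of all miRNAs, namely miR-154-5p (0.88, SE 0.18, edgeR adjusted p = 0.00562). In the other 4 comparisons it was 0 of 9. miR-154-5p, of the gene next to Mir485, was at 6.22 ± 1.46 CPM for naive (n = 4), 8.18 ± 1.53 for sham (n = 5), 6.19 ± 0.33 for mTBI (n = 5) and 11.4 ± 2.25 for sTBI (n = 5). The flanking rows were sparse, with 6 of 12 at 0 in at least 1 library.

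**Figure D5:**
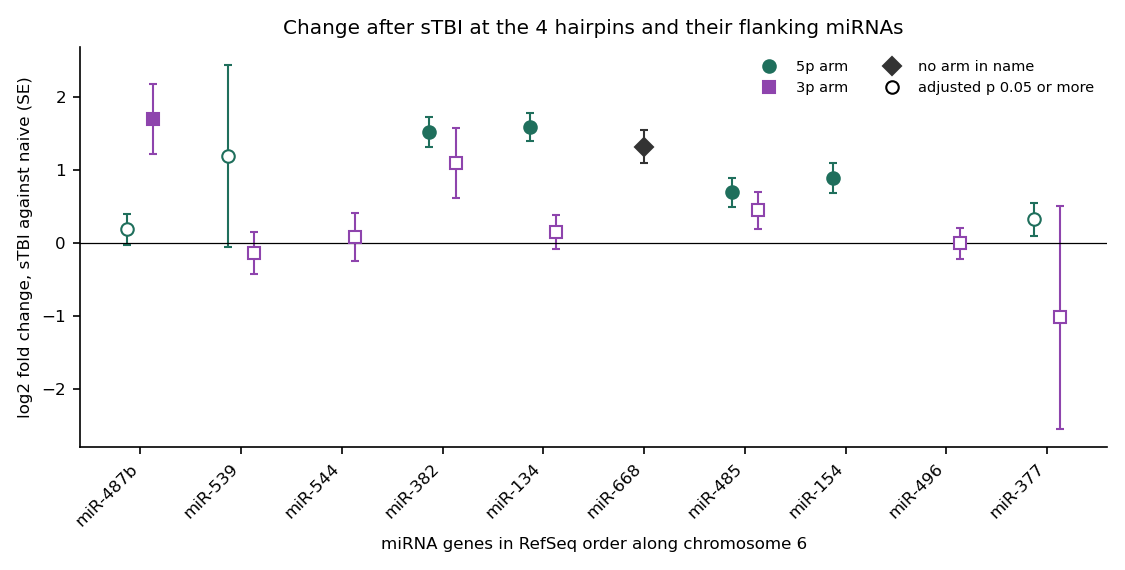
Log2 fold change (edgeR, with its SE) in sTBI against naive rats for each tested arm of the 4 hairpins and the flanking miRNA genes named above. Genes are placed in RefSeq order along chromosome 6, with filled marks for an adjusted p under 0.05. Filled marks for 4 of the 7 members (0.69 to 1.59) and for 2 of the 9 flanking arms (0.89 and 1.69) stand among open ones, and miR-134-3p at 0.15 sits beside miR-134-5p at 1.59.

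The wider Dlk1-Dio3 list held 79 tested miRNAs besides the 7 members. In sTBI against naive rats 14 of 79 were higher and 0 lower, where 4.35% of all miRNAs were called higher. The median log2 fold change was 0.40 against 0.03 over all miRNAs. The largest changes among those with the smallest p were miR-323-3p (3.48, SE 0.21), miR-434-3p (2.94, SE 0.22) and miR-3543 (2.71, SE 0.25), each larger than that of any member. In sTBI against mTBI 9 of 79 were higher, against 2.95% of all miRNAs (median 0.29, all miRNAs 0.04). In sTBI against sham-operated controls 4 were higher, against 1.82%, and 1 lower, against 0.281% (median 0.11, all miRNAs -0.007). Sham-operated controls against naive rats gave 4 higher, against 2.10%, and 1 lower, against 0.281% (median 0.31, all miRNAs 0.04). Rats with mTBI against naive rats gave 4 higher, against 2.38%, and 0 lower (median 0.06, all miRNAs -0.05). Against sham-operated controls, mTBI gave 0 in either direction, where 0.140% of all miRNAs were called higher (median -0.21, all miRNAs 0.02).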

How the data were processed

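The authors prepared the libraries with a UMI kit and trimmed reads with cutadapt. They aligned with Bowtie against the Rnor_6.0 build and mature miRNAs of miRBase in the GeneGlobe portal. Perfect matches came first, and up to 2 mismatches were accepted only in a last mapping to mature miRNAs. They deposited counts of reads and of UMIs per feature, not normalized. UMI counts of 748 mature miRNAs were used as deposited. No sample column was left unused. The tRNA and Piwi-interacting RNA counts were not used here. Groups followed the labels. edgeR 4.0.16 in R 4.3.3 was fitted on all 19 libraries (TMM, filterByExpr with minimum count 10, robust quasi-likelihood), with 713 miRNAs tested. All 7 members were named in each comparison, as were the flanking miRNAs and, for each member, the 3 miRNAs most like it. The members and lists were chosen with earlier results of these data known. Alternatives were read counts, no filter, RLE factors, total counts, spike-in totals, hemolysis as a covariate, a block for the replicate number, fits limited to the 2 groups compared, DESeq2 1.42.0, counts under 10 set to 0, a pseudocount of 1 for ratios, leaving out the 4 libraries set apart, and each library left out. Scripts were tested on simulated data. Intervals and floors cover counting error or the spread between rats only.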

Additional observations from a re-analysis of the deposited data

Results flagged for a closer look

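In 28 sets of 4 or 5 libraries (7 miRNAs in 4 groups), the lowest or highest library was compared with the rest by Dixon's gap, which marks about 1 in 20 sets by chance. It marked 2. miR-382-3p in sham 3 was at 0 CPM, with the other sham-operated controls at 20 to 24 UMIs. miR-134-3p in sham 2 was at 13.7 CPM, below the other sham-operated controls at 18.4 to 19.1 CPM.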

How the results depend on the processing

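Of 42 changes of members, 12 were called, and 5 of these were called under each of the 11 other settings tried besides single libraries left out, namely miR-382-5p, miR-134-5p and miR-668 in sTBI against naive rats and miR-382-5p and miR-668 in sTBI against mTBI. With each of the 19 libraries left out, 7 of the 12 were kept, these 5 and miR-134-5p in sham and in mTBI against naive rats. In sham against naive rats 1 member was called in place of 2 on read counts, RLE factors, spike-in totals, the hemolysis covariate, the replicate block or a fit of 2 groups, and 0 without the 4 libraries set apart. In mTBI against naive rats it was 0 in place of 1 on total miRNA counts or without those 4. In sTBI against sham it was 1 in place of 2 on read counts, spike-in totals or the replicate block, and 0 on total miRNA counts. The block changed no other such count by over 1.5 times. The labels do not say whether replicate numbers pair rats. Among same-numbered pairs, 12 of 27 correlated at over 0.1 (from -0.46 to 0.33), which cannot decide it. Under the block the edgeR adjusted p was 0.0568 for miR-485-5p in sTBI against naive rats. For miR-382-5p it was 0.116 in sham against naive rats and 0.0763 in sTBI against sham. With single libraries left out the counts were 1 to 2 (sham against naive), 3 to 4 (sTBI against naive), 0 to 2 (sTBI against sham) and 2 to 4 (sTBI against mTBI). Of the 21 ratios 3 passed on read counts, 4 without the 4 libraries set apart and 6 to 13 with single libraries left out, 6 without naive 1 and 13 without sham 3. The cause was not tested.

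No called change turned its direction. Changes near 0 did. Without the 4 libraries set apart, miR-134-3p was at -0.18 (sham against naive), -0.17 (sTBI against naive), 0.079 (mTBI against sham), 0.0059 (sTBI against sham) and -0.073 (sTBI against mTBI), and miR-382-3p at 0.061 (mTBI against sham). On spike-in totals miR-134-3p was at 0.023 (mTBI against naive), -0.050 (sTBI against naive) and -0.074 (sTBI against mTBI), and in mTBI against sham miR-382-3p was at 0.11 and miR-485-5p at 0.048. On total miRNA counts miR-134-3p was at 0.0084 (mTBI against naive) and 0.071 (sTBI against sham). In sTBI against sham it was also at 0.027 on read counts, 0.0077 on RLE factors, 0.0083 with DESeq2, 0.0084 with counts under 10 set to 0 and 0.0071 in a fit of 2 groups. With single libraries left out miR-134-3p ranged from -0.060 to 0.30 (sham against naive), -0.25 to 0.11 (mTBI against naive), -0.056 to 0.30 (sTBI against naive) and -0.086 to 0.057 (sTBI against sham), and miR-382-3p from -0.40 to 0.10 (mTBI against sham). Total miRNA counts moved the median of all miRNAs by 0.26 in sham and 0.33 in sTBI against naive rats, and spike-in totals by -0.23 in sTBI against naive rats and -0.31 in sTBI against mTBI. miR-382-3p and both arms of miR-485 had at most 61 UMIs per library, which limits their precision.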
